A study of Mus musculus with 18 samples.

Results

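A module of 37 proliferation genes, 23 of mitosis and 14 of S phase, was followed through 18 mouse mammary tumors. The members were chosen by name from their roles in the cell cycle, with earlier results of these tumors known, and are 37 of the 57126 genes in the count table. All 37 had between 180 and 32066 counts in every tumor, and all 37 passed the filter on low counts in each comparison. The tumors arose in MaP mice, F1 females of BALB/c and C57BL6/J parents. As young adults they received an adenovirus carrying Cre recombinase through the mammary duct. The latencies listed by the study ran to many months after this injection and differed between mice. Before Cre acts, every cell of these mice makes normal p53. Cre switches this off in the ductal cells that take up the virus, which then have a mutant allele opposite a null allele, or no p53 at all, so that each tumor sample mixes such cells with p53 wild-type host cells. The groups were 7 MaP R172H/- tumors, in which the remaining allele encodes the structural mutant R172H, 5 MaP R245W/- tumors, in which it encodes R245W, and 6 MaP -/- tumors with neither. Only 4 mice gave the 6 MaP -/- tumors, as mice JM663 and JM833 each gave a tumor T1 and a tumor T2. The labels name T1 of mice JM779 and JM836, whereas the study's list of tumors marks T2 of these mice as sequenced, and the labels were followed. A Cre-dependent TdTomato reporter at Rosa26 was also carried by YZ2, YZ6 and YZ10 of the MaP R172H/- group and by JM1233, JM1564 and RM0014 of the MaP R245W/- group.

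The assay was RNA sequencing after removal of ribosomal RNA, and the deposited values are raw counts per gene. Totals lay between 23113578 and 27930163 counts in MaP R172H/- tumors, between 30030630 and 37365062 in MaP R245W/- tumors and between 24736337 and 32085794 in MaP -/- tumors. All MaP R172H/- libraries were read on a HiSeq instrument and all others on a NovaSeq instrument with longer reads. The study classed the MaP R172H/- tumors as luminal B or HER2-enriched and the others as triple-negative. By histology it classed all MaP R172H/- tumors as nonmetaplastic adenocarcinomas, whereas both other groups mixed metaplastic and nonmetaplastic tumors. Genotype, instrument and subtype thus cannot be told apart wherever MaP R172H/- tumors are compared with the others. Histology followed genotype only in part, as JM1564 and, by its label, JM836-T1 were also classed as nonmetaplastic adenocarcinomas. The part of histology in the results was not tested. Trp53 was at 10.8 (YZ11) to 50.3 counts per 1000000 counts of the library (CPM) in MaP R172H/- tumors, with a median of 45.8. It was at 11.4 (JM1233), 27.1 (JM1564), 9.09 (RM0014), 27.6 (JM1126) and 59.0 CPM (JM1133) in MaP R245W/- tumors and between 9.43 and 21.6 CPM in MaP -/- tumors. YZ11, JM1233 and RM0014 therefore did not exceed the highest MaP -/- tumor, and calls that change without them are given beside the results. Most epithelial markers were low in 1 tumor of each group, with Epcam at 24.6 CPM in YZ7, 34.8 CPM in JM1233 and 10.2 CPM in JM779-T1. Basal keratins did not all follow, as Krt5 was at 34.5 CPM in YZ7, against 0.95 CPM in YZ2. Krt14 was at 27.6 CPM in JM1233, against 9.77 CPM in JM1564, and at 19.8 CPM in JM779-T1, against 7.33 CPM in JM833-T2. The study classed JM1233 and JM779-T1 as sarcomatoid carcinomas and YZ7 as an adenocarcinoma. It classed JM779-T2, which its list marks as sequenced, as a nonmetaplastic adenocarcinoma. Calls that change without these tumors are given likewise. Summed over 10 epithelial markers, the level ran from 380 to 11270 CPM in MaP R172H/-, from 500 to 6422 CPM in MaP R245W/- and from 171.6 to 3219 CPM in MaP -/- tumors.

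The genes of the module are switched on in sequence as a cell divides. E2F transcription factors open S phase by turning on the genes that load and fire replication origins and that make deoxynucleotides, and a later wave driven by B-Myb (Mybl2) and Foxm1 turns on the cyclins, kinases, motors and ubiquitin ligase parts that carry the cell through mitosis. In resting cells the DREAM complex holds both waves down, and wild-type p53 strengthens that hold by inducing the inhibitor p21 (Cdkn1a). In a bulk tumor the level of such a gene reflects both the share of cycling cells and the amount of its RNA per cycling cell, and fewer cells of a type and less RNA per cell cannot be told apart.

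The promoters of the mitotic and the S-phase members hold different motifs. Promoter windows from RefSeq (build GRCm38.p6, 250 bases before to 50 bases after the start of transcription) were found for 30 of the 37 members, 18 mitotic and 12 S-phase. The CHR, the cell cycle genes homology region bound by DREAM and B-Myb complexes, was searched as TTTGAA or TTCGAA. On either strand it occurred in 14 of 18 mitotic windows (77.8%), in 2 of 12 S-phase windows (16.7%, Mcm2 and Mcm7) and in 19.4% of all 27025 windows of the same length. An E2F element, searched with GCGGGAA as the first form, GCGCGAA as the next, GCGCCAA as another and GCGGCAA as the last, occurred in 3 of 18 mitotic windows (Mki67, Ccnb1 and Cdk1), in 7 of 12 S-phase windows and in 9.69% of all windows. The CCAAT box, bound by NF-Y, occurred in 16 of 18 mitotic and 7 of 12 S-phase windows and in 37.9% of all windows. Matches of different motifs may overlap. The 6 stretches that follow were chosen to show a mitotic promoter with CHR and CCAAT boxes (Ccnb2, Cdc20 and Cdk1), an S-phase promoter with E2F elements (Mcm6) and the promoters of Ccnb1 and Pcna, the 2 members with a window that differed between groups. Each runs 5′ to 3′ along its gene from 140 bases before to 10 bases after the start, and capitals mark matches to any of the motifs on either strand. All 6 genes lie on the minus strand, at chr9:70421545-70421694 for Ccnb2, chr4:118437334-118437483 for Cdc20, chr10:69352903-69353052 for Cdk1, chr1:128359696-128359845 for Mcm6, chr13:100786477-100786626 for Ccnb1 and chr2:132253171-132253320 for Pcna.
Ccnb2: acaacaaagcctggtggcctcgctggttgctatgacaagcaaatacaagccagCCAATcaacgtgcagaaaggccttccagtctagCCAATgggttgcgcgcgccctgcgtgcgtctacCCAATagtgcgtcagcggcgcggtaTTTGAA
Cdc20: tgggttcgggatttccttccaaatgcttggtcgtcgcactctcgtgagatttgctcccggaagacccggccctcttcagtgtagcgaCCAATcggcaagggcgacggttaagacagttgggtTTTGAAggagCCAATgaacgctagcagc
Cdk1: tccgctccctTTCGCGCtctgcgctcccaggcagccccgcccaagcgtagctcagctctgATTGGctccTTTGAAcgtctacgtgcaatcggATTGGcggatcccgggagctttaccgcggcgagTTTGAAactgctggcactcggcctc
Mcm6: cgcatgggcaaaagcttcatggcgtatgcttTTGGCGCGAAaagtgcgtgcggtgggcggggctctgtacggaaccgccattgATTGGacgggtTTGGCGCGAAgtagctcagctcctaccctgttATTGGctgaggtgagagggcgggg
Ccnb1: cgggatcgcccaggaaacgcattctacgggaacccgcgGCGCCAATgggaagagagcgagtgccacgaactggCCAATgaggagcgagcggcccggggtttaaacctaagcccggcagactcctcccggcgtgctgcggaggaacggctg
Pcna: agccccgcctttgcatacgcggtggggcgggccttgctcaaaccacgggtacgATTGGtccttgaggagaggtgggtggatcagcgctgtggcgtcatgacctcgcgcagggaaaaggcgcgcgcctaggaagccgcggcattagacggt
Ccnb2 and Cdc20 carried a CHR close to the start beside 3 and 2 CCAAT boxes, and Cdk1 carried 2 CHR matches, 2 CCAAT boxes and an E2F element. Mcm6 carried 2 E2F elements, each matched on both strands, and 2 CCAAT boxes. The Ccnb1 stretch held an E2F element that overlaps a CCAAT box and a further CCAAT box, with no CHR letters in the window. The Pcna stretch held 1 CCAAT box and no match to the CHR or the E2F letters searched. These matches are descriptions of sequence, and no binding was measured.

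The first question was how much the tumors of each group proliferated by this measure. Levels are CPM with library sizes scaled by TMM, and the score of a tumor is the mean over members of log2 CPM after each gene was centered on its mean over the 18 tumors, so that a difference of 1 is a doubling. The mitotic score averaged 0.04 ± 0.31 (SD, n = 7) in MaP R172H/- tumors, 0.10 ± 0.47 (n = 5) in MaP R245W/- tumors and -0.13 ± 0.65 (n = 6) in MaP -/- tumors. The S-phase score averaged -0.08 ± 0.34, 0.20 ± 0.32 and -0.07 ± 0.60 in the same order. The differences between the group means were smaller than the SD of the MaP -/- group for both scores, and all 3 groups overlapped.

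The spread lay within groups. The highest and the lowest tumor of the whole series were both MaP -/- tumors: JM779-T1 had a mitotic score of 0.80 and an S-phase score of 0.85, and JM833-T1 had -1.17 and -1.02. They stood 3.9-fold apart in mitotic and 3.66-fold apart in S-phase level, against 1.78-fold and 1.79-fold between the extremes of the MaP R172H/- group and 2.23-fold and 1.74-fold in the MaP R245W/- group. In MaP R245W/- tumors the mitotic score was 0.21 in JM1233, 0.40 in JM1564, 0.18 in RM0014, -0.72 in JM1126 and 0.43 in JM1133. JM1126 alone lay below 0 there. Cell type markers stood out in the 2 tumors of lowest mitotic score. JM833-T1 had the highest adipocyte score of the series. Its 8 adipocyte markers summed to 5018 CPM, against 24.4 to 528 CPM in the other 17 tumors. JM1126 had the highest fibroblast score, with 10 fibroblast markers summing to 33710 CPM against 2740 to 15860 CPM. The study classed JM1126 as a sarcoma, so that fibroblast genes of tumor cells and of host cells cannot be told apart there. JM779-T1, the highest tumor, had the lowest epithelial sum, 171.6 CPM. The part of these markers in the scores was not tested.

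**Figure D1:**
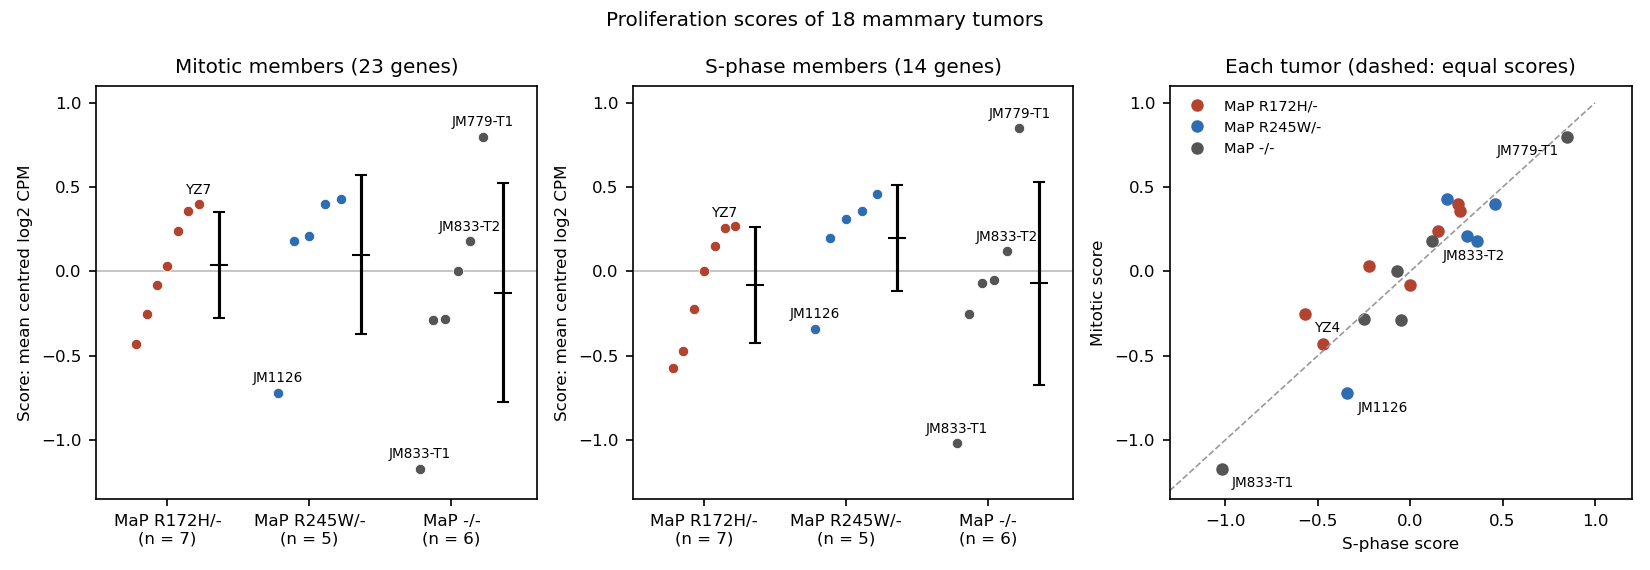
Mitotic and S-phase scores (mean centered log2 CPM over 23 and 14 genes) of the 18 tumors, with 1 point per tumor sorted within its group and a bar for mean and SD, and the mitotic against the S-phase score of each tumor. The 3 groups overlap, the MaP -/- tumors run from -1.17 to 0.80 in mitotic score, and the points of the last panel lie close to the line of equal scores.

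Tumors of 1 mouse could differ as much as tumors of different genotypes. In mouse JM833 the second tumor was higher than the first for 37 of 37 members, by 0.65 (E2f1) to 2.35 (Rrm2) on the log2 scale, and the mitotic and S-phase levels were 2.55-fold and 2.2-fold higher. In mouse JM663 the second tumor was higher for 13 of 37 members, between -1.15 (Ccnb2) and 0.57 (Cdc20), and its mitotic and S-phase levels were 0.82-fold and 1.02-fold those of the first. The 2 mice thus give 1 pair far apart and 1 pair close together.

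Mitotic and S-phase genes went together. Over the 18 tumors the 2 scores had a Pearson correlation of 0.92 and a Spearman correlation of 0.86, and within the 7 MaP R172H/- tumors 0.92 and 0.89. In the other 11 tumors the values were 0.96 and 0.88. These are descriptions, since both scores come from the same libraries and share their depth and tissue composition. The mitotic score minus the S-phase score was 0.12 ± 0.13 in MaP R172H/-, -0.10 ± 0.22 in MaP R245W/- and -0.06 ± 0.12 in MaP -/- tumors, with overlap among the groups. For single members, the correlation of a gene with the mean of the other members over the 18 tumors had a median of 0.83. It was highest, at 0.93, for Aurka, Kif20a and Mcm6 and lowest for E2f1 (0.50), Rrm2 (0.52), Mki67 (0.56) and Pcna (0.58). Pcna stood at 0.94 in the 11 tumors that were not MaP R172H/-, and Mki67 stood at 0.08 within the 7 MaP R172H/- tumors.

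**Figure D2:**
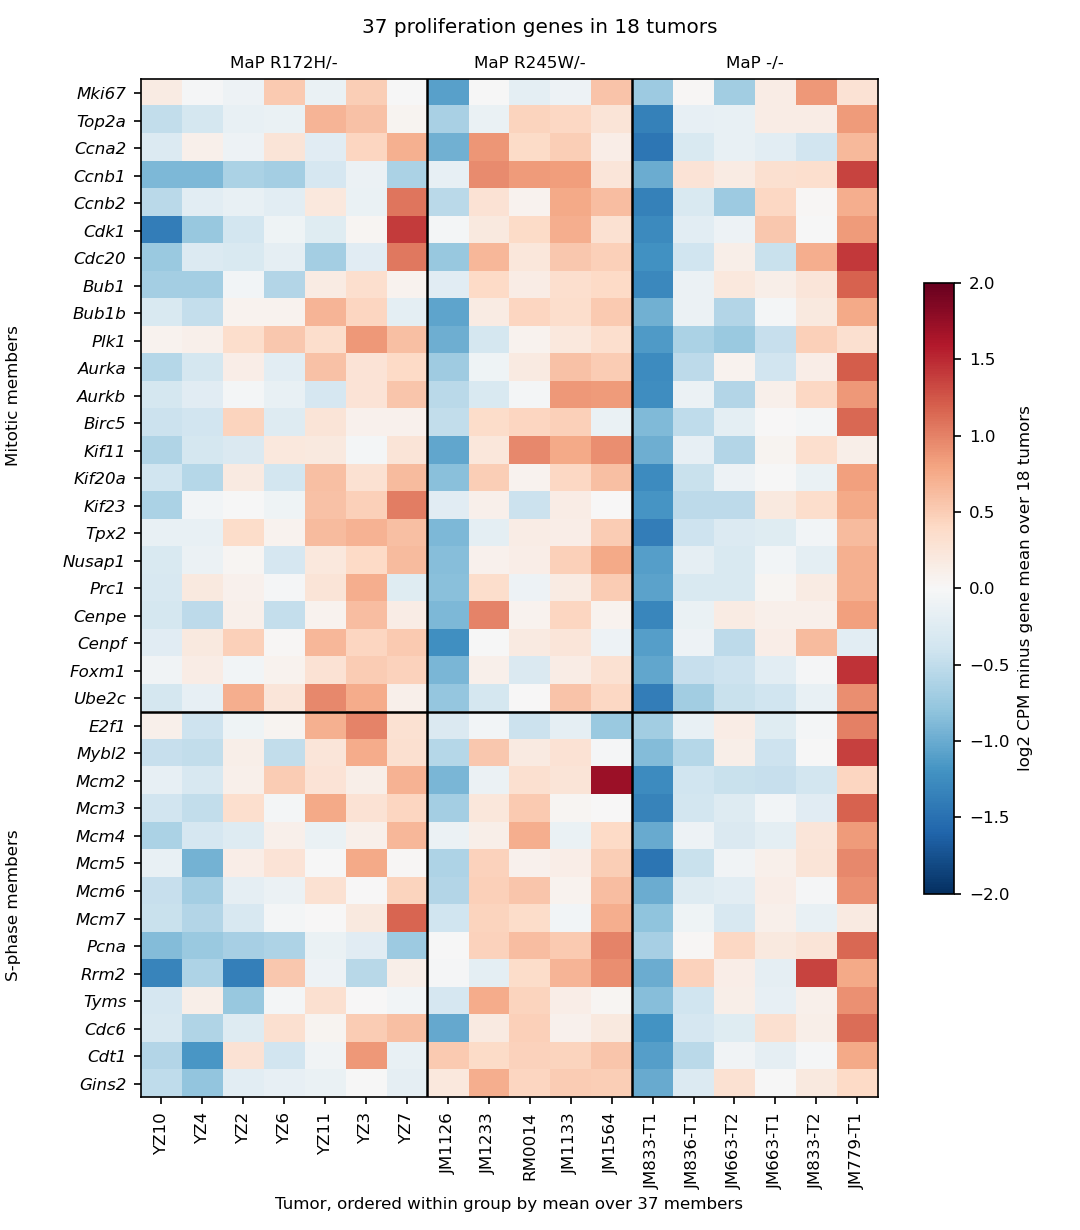
Log2 CPM of each of the 37 members minus its mean over the 18 tumors, with genes in rows by role and tumors in columns, ordered within each group by the mean over all members. JM833-T1 is low and JM779-T1 is high for nearly every gene, Ccnb1 and Pcna are low across the MaP R172H/- columns, and Mcm2 in JM1564 and Cdk1 in YZ7 stand out as single squares.

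Levels between genes were compared per kilobase of merged exons. By the median over the 18 tumors, Mki67, the antigen used to stain cycling cells, was highest at 57.8 CPM per kilobase, followed by Top2a at 43.3, Mcm6 at 28.0, Pcna at 27.5 and Bub1b at 24.7. Gins2 was lowest at 2.72 CPM per kilobase and Mybl2 came next at 2.9. The order at the top depended on the length used: per kilobase of the canonical transcript alone, Top2a (75.2) was above Mki67 (57.8), and Birc5 (44.9) above Pcna (43.5). Gins2 (2.86) and Mybl2 (4.29) were lowest by this length too.

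Each mutant group was then compared with MaP -/- tumors, to ask whether a missense p53 goes with more or less expression of the module than loss of p53, with edgeR's quasi-likelihood test and Benjamini-Hochberg adjustment over all genes tested. A gene was called at an adjusted p (FDR) below 0.05. In MaP R172H/- against MaP -/- tumors, 0 members were called higher and 1 lower of 37, where 8.4% of all 20954 genes tested were called (3.67% higher and 4.73% lower). The called gene was Pcna, and Ccnb1 came next with an FDR of 0.0549. With the tumors of 1 mouse summed, which counts each mouse once, the call passed from Pcna (-0.95, FDR 0.0541) to Ccnb1 (-1.09, FDR 0.0437). The median log2 fold change was 0.06 over the 37 members, 0.10 over the mitotic and -0.03 over the S-phase members, against 0.00 over all genes. Of the 37 members, 22 lay above 0, and the 95% confidence interval lay within 1 of 0 on the log2 scale for 28. No member's groups were separated without overlap, against 2.01% of all genes higher and 2.62% lower, and 0 members were called with a log2 fold change of at least 1, against 5.02% of all genes. Cell type markers moved with this comparison: 3 of 12 immune, 3 of 10 fibroblast and 2 of 7 endothelial markers were called lower in MaP R172H/- tumors. All immune and endothelial estimates lay below 0, whereas 5 of the 10 fibroblast markers lay above 0, with a median of -0.31. Other marker sets held no call but moved too. All 10 epithelial estimates (median 1.33) and 8 of 9 skeletal muscle estimates (median 1.35) lay above 0. All 8 adipocyte (median -3.3) and all 5 erythroid estimates (median -2.37) lay below 0. The 12 immune markers summed to 358 to 474 CPM in MaP R172H/- and to 445 to 1322 CPM in MaP -/- tumors. The 10 fibroblast markers summed to 2740 to 8289 CPM and to 4613 to 8336 CPM in the same order. The part of all these markers in the members' values was not tested.

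In MaP R245W/- against MaP -/- tumors 0 of 37 members were called, and 0% of the 21452 genes tested were called. At an unadjusted p below 0.05 there were 0 members and 2527 genes (11.8%), and DESeq2 called 427 genes and 0 members. The median log2 fold change was 0.18 over the members, 0.17 over the mitotic and 0.20 over the S-phase members, against 0.02 over all genes. The confidence interval lay within 1 of 0 for 25 members, and for each of the other 12 it reached past 1 in 1 direction, mostly upwards, so that a 2-fold change that way was not excluded.

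Between MaP R172H/- and MaP R245W/- tumors, fitted with all 18 tumors, 0 members were called higher and 3 lower in MaP R172H/- tumors, Pcna, Ccnb1 and Gins2, where 9.4% of the 22481 genes tested were called (2.91% higher and 6.49% lower). The groups of 2 members, Pcna and Gins2, did not overlap, against 4.05% of all genes lower without overlap. With a log2 fold change of at least 1 required as well, 2 members were called, Pcna and Ccnb1, against 6.19% of all genes. The share of members called was close to the background. The median log2 fold change was -0.13 over the members, -0.10 over the mitotic and -0.28 over the S-phase members, and 11 of 37 lay above 0. Of cell type markers, 7 of 9 skeletal muscle, 2 of 12 immune and 1 of 10 fibroblast markers tested were called lower in MaP R172H/- tumors. Estimates above 0 were found for 8 of the 12 immune markers and for 0 of the skeletal muscle and fibroblast markers. The part of these markers in the members' values was not tested. Both comparisons of a mutant with MaP -/- share the MaP -/- tumors, and the direct comparison is also the test of whether the 2 changes against MaP -/- differ.

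**Figure D3:**
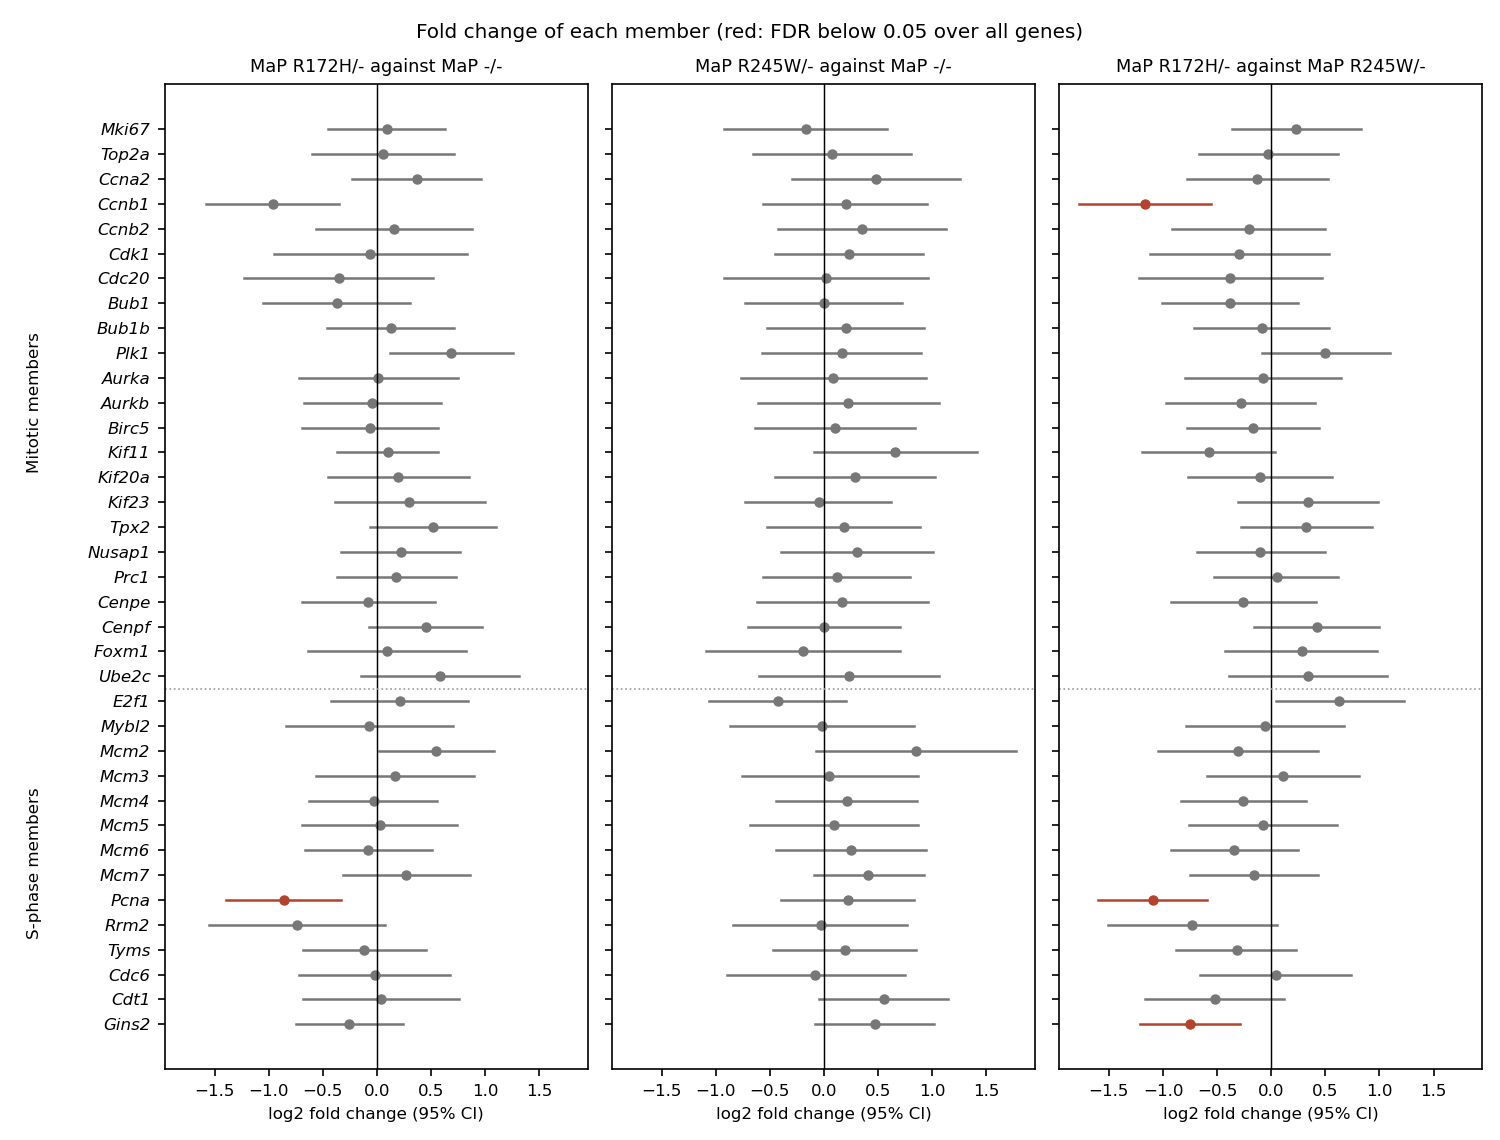
Log2 fold change of each member with its 95% confidence interval in the 3 comparisons, in red at an FDR below 0.05 over all genes tested. Pcna is red in the first panel, no member in the second, and Ccnb1, Pcna and Gins2 in the third, and most intervals of the other members span 0.

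Pcna, the sliding clamp that holds DNA polymerase on its template, was at 35.9 (YZ10) to 59.7 CPM (YZ11) in MaP R172H/- tumors with a median of 41.3. It was at 90.4 (JM1233), 130 (JM1564), 100.4 (RM0014), 65.4 (JM1126) and 93.9 CPM (JM1133) in MaP R245W/- tumors and at 41.4 (JM833-T1) to 145 CPM (JM779-T1) in MaP -/- tumors with a median of 76.7. Every MaP R172H/- tumor lay below every MaP R245W/- tumor, and below every MaP -/- tumor other than JM833-T1. Pcna was lower in MaP R172H/- tumors than in MaP -/- tumors by a log2 fold change of -0.86 (SE 0.246, 95% confidence interval -1.39 to -0.33, FDR 0.0459), and than in MaP R245W/- tumors by -1.09 (SE 0.241, -1.60 to -0.59, FDR 0.00816). The second call held with each of the 18 tumors left out in turn, with FDRs between 0.00225 and 0.0271. The first held with 2 of the 13 tumors left out in turn, JM833-T1 (FDR 0.0149) and YZ11, and was lost with each of the other 11, with FDRs up to 0.0881. Without JM779-T1 the log2 fold change was -0.60 (FDR 0.0791). Between MaP R245W/- and MaP -/- tumors the log2 fold change was 0.22 (FDR 0.775).

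Ccnb1, the cyclin that activates Cdk1 at entry into mitosis, was at 28.4 (YZ10) to 49.0 CPM (YZ3) in MaP R172H/- tumors with a median of 34.2. It was at 102 (JM1233), 63.0 (JM1564), 95.5 (RM0014), 47.4 (JM1126) and 94.7 CPM (JM1133) in MaP R245W/- tumors and at 26.8 (JM833-T1) to 136 CPM (JM779-T1) in MaP -/- tumors with a median of 65.6. MaP R172H/- tumors were low, but JM1126 and JM833-T1 lay within or below their range. The log2 fold change was -1.17 against MaP R245W/- tumors (SE 0.289, 95% confidence interval -1.78 to -0.56, FDR 0.0167) and -0.96 against MaP -/- tumors (SE 0.287, -1.58 to -0.35, FDR 0.0549). The first stayed below an FDR of 0.05 with each tumor left out, and the second ran from 0.0116 without JM833-T1 to 0.1 without JM779-T1. The 5 annotated pseudogene copies of Ccnb1 held 0.25% to 1.14% of its counts and 1 copy of Pcna held 0.367% to 11.3%, the most in JM1126, and adding them to the counts changed no call.

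Gins2, a subunit of the GINS complex of the replicative helicase, was at 6.49 (YZ4) to 11.2 CPM (YZ3) in MaP R172H/- tumors with a median of 9.86. It was at 18.6 (JM1233), 15.8 (JM1564), 15.03 (RM0014), 13.0 (JM1126) and 16.0 CPM (JM1133) in MaP R245W/- tumors and at 5.55 (JM833-T1) to 14.7 CPM (JM779-T1) in MaP -/- tumors with a median of 12.0. MaP R172H/- and MaP R245W/- tumors did not overlap, and both overlapped the MaP -/- tumors. The log2 fold change was -0.75 against MaP R245W/- tumors (SE 0.218, 95% confidence interval -1.21 to -0.29, FDR 0.0382) and -0.26 against MaP -/- tumors (FDR 0.528). The call between the mutants held with 10 of the 18 tumors left out in turn and was lost without YZ2, YZ4, YZ6, YZ10, JM1233, JM1564, RM0014 or JM1133, with FDRs up to 0.0821. Without YZ11, JM1233 and RM0014, Pcna was the only member called between the mutants.

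**Figure D4:**
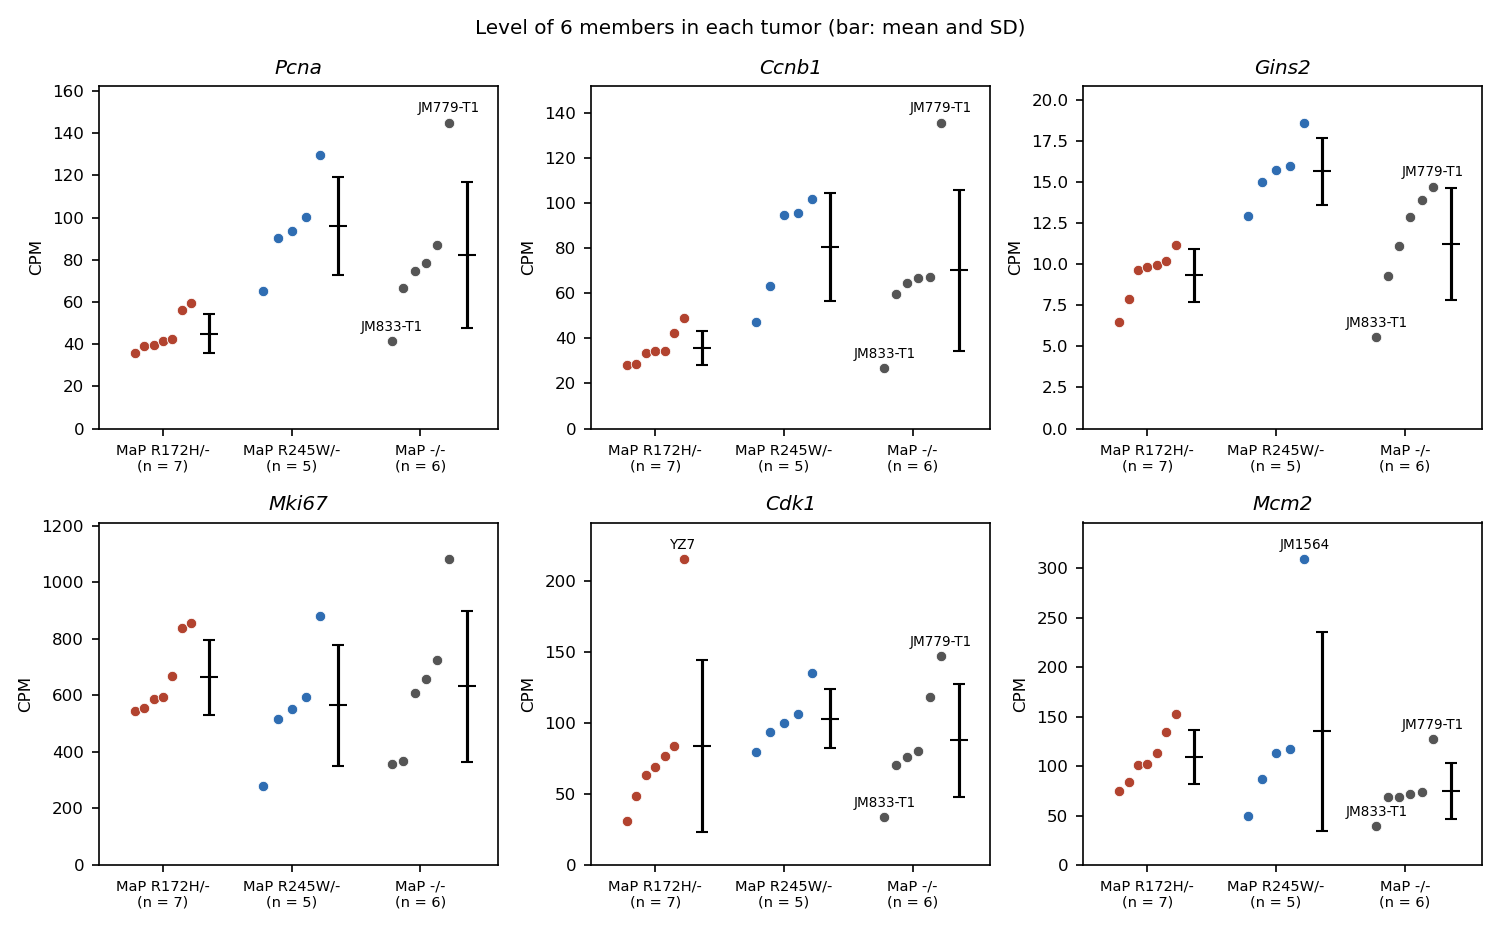
CPM of 6 members in each tumor, with 1 point per tumor sorted within its group and a bar for mean and SD. MaP R172H/- tumors are below MaP R245W/- tumors for Pcna and Gins2 without overlap, whereas Mki67 overlaps in all groups, and single tumors, YZ7 for Cdk1 at 215 CPM and JM1564 for Mcm2 at 309 CPM, stand above their groups.

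The 3 genes were also set against their closest partners, as a description chosen after their values were seen. Per 100 counts of the helicase subunits Mcm2 to Mcm7 together, Pcna was at 3.94 to 8.75 in MaP R172H/- tumors (6.73 ± 1.52, SD, n = 7), 11.1 to 14.3 in MaP R245W/- tumors (12.4 ± 1.5, n = 5) and 11.6 to 15.8 in MaP -/- tumors (13.0 ± 1.54, n = 6). On this ratio, which does not depend on library size, the MaP R172H/- tumors lay below all 11 others, JM833-T1 included. Ccnb1 counts per count of Ccnb2, the other mitotic B cyclin, were 0.407 to 1.34 in MaP R172H/- tumors, 1.03 to 2.27 in MaP R245W/- tumors and 1.25 to 2.47 in MaP -/- tumors, with overlap. Gins2 per 100 counts of Mcm2 to Mcm7 was at 0.977 to 1.56, 1.43 to 2.83 and 1.29 to 2.53 in the same order and overlapped too. Plk1 per 100 counts of Aurka, 2 mitotic kinases, was at 46.1 to 92.1, 42.0 to 50.5 and 29.4 to 69.7.

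**Figure D5:**
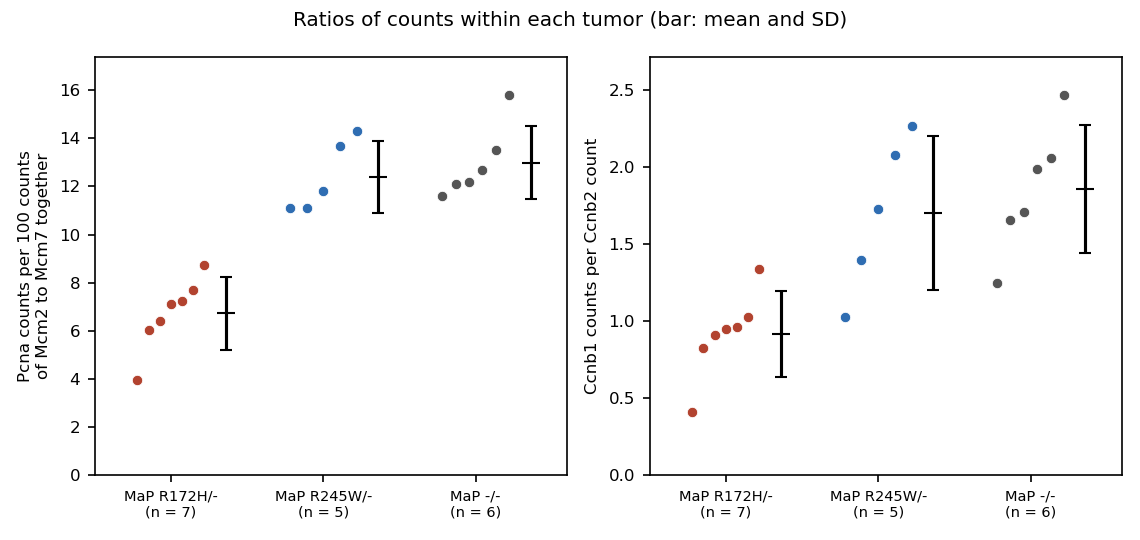
Pcna counts per 100 counts of Mcm2 to Mcm7 together and Ccnb1 counts per Ccnb2 count in each tumor, with 1 point per tumor sorted within its group and a bar for mean and SD. The 7 MaP R172H/- tumors lie at or below 8.75 for Pcna and the 11 others at or above 11.1, and the groups overlap for Ccnb1.

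With all tumors in the fit, none of the other 22 mitotic members was called in any comparison, and their groups overlapped. Mki67 was at 544 to 856 CPM in MaP R172H/- tumors (median 594), at 594 (JM1233), 879 (JM1564), 517 (RM0014), 281 (JM1126) and 552 CPM (JM1133) in MaP R245W/- tumors and at 358 to 1082 CPM in MaP -/- tumors (median 633). Its log2 fold change was 0.09 in MaP R172H/- against MaP -/- tumors (95% confidence interval -0.45 to 0.63, FDR 0.862), which bounds a change to under 2-fold, and -0.17 in MaP R245W/- against MaP -/- tumors (FDR 0.86). Top2a, the topoisomerase that untangles sister chromatids, was at 287 to 648 CPM (median 368) in MaP R172H/- tumors, at 368, 481, 547, 257 and 538 CPM in MaP R245W/- tumors in the order just used, and at 158 to 725 CPM (median 405) in MaP -/- tumors. The groups overlapped for both genes, and JM1126 was the lowest of its group. Mki67 varied 1.57-fold within the MaP R172H/- group, 3.13-fold within the MaP R245W/- and 3.02-fold within the MaP -/- group.

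Among the mitotic kinases, Cdk1, the partner of the B cyclins, was at 31.1 to 215 CPM (median 68.6) in MaP R172H/- tumors, at 93.4, 99.99, 106, 79.5 and 135 CPM in MaP R245W/- tumors and at 33.7 to 147 CPM (median 78.2) in MaP -/- tumors. The 215 CPM belonged to YZ7, and the other 6 MaP R172H/- tumors ended at 83.5 CPM. Plk1, which drives centrosome maturation and mitotic entry, was at 26.3 to 45.8 CPM (median 32.2) in MaP R172H/- tumors, at 19.6, 31.9, 26.5, 12.8 and 29.2 CPM in MaP R245W/- tumors and at 11.5 to 35.2 CPM (median 17.2) in MaP -/- tumors. In MaP R172H/- against MaP -/- tumors it had the largest positive estimate of the members, 0.69 (SE 0.264, FDR 0.124), and did not pass the test. Aurka, the kinase of the spindle poles, was at 30.9 to 69.6 CPM (median 50.7), at 43.6, 65.6, 52.5, 28.1 and 69.6 CPM and at 19.3 to 107 CPM (median 42.1) in the 3 groups in turn. Aurkb, the kinase of the chromosomal passenger complex, was at 24.5 to 46.2 CPM (median 28.3), at 25.3, 56.7, 30.4, 21.5 and 57.0 CPM and at 13.2 to 56.9 CPM (median 31.3). The estimates of both Aurora kinases lay between -0.28 and 0.22 over the 3 comparisons.

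Birc5 (survivin), a partner of Aurkb, was at 32.9 to 60.6 CPM (median 47.1) in MaP R172H/- tumors, at 57.4, 40.8, 59.8, 31.6 and 61.7 CPM in MaP R245W/- tumors and at 24.0 to 98.8 CPM (median 41.0) in MaP -/- tumors. Foxm1, the transcription factor of the mitotic wave, was at 35.6 to 53.2 CPM (median 41.4), at 40.2, 46.3, 30.6, 19.8 and 41.4 CPM and at 18.3 to 102 CPM (median 30.1) in the same order. Ube2c, the ubiquitin-conjugating enzyme of the anaphase-promoting complex, was at 27.1 to 67.2 CPM (median 41.1), at 27.1, 46.2, 34.7, 20.2 and 51.5 CPM and at 13.3 to 65.6 CPM (median 25.9). For all 3 genes JM833-T1 was the lowest and JM779-T1 the highest MaP -/- tumor. Kif11, the motor that separates the spindle poles, was at 78.9 to 143 CPM (median 117) in MaP R172H/- tumors, at 140, 228, 234, 58.5 and 203 CPM in MaP R245W/- tumors and at 61.0 to 151 CPM (median 116) in MaP -/- tumors. JM1564, RM0014 and JM1133 stood above all tumors of the other groups, JM1233 lay within their range and JM1126 was low, and the estimate against MaP -/- tumors was 0.66 (SE 0.343, FDR 0.467). Without JM1126, Kif11 was called lower in MaP R172H/- than in MaP R245W/- tumors (-0.80, FDR 0.0493), where all 18 tumors gave -0.58 (FDR 0.214). The remaining mitotic members, the cyclins Ccna2 and Ccnb2, the checkpoint and anaphase genes Cdc20, Bub1 and Bub1b, the motors and spindle genes Kif20a, Kif23, Tpx2, Nusap1 and Prc1 and the kinetochore genes Cenpe and Cenpf, had estimates between -0.38 and 0.52 over the 3 comparisons.

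The S-phase members other than Pcna and Gins2 likewise gave no call. E2f1, the founding E2F factor, was at 12.6 to 33.4 CPM (median 17.9) in MaP R172H/- tumors, at 16.1, 10.1, 12.4, 13.7 and 14.7 CPM in MaP R245W/- tumors and at 10.3 to 33.8 CPM (median 15.7) in MaP -/- tumors. Its estimate between the mutants, 0.63 (SE 0.283, FDR 0.169), was the largest positive one of that comparison. Mybl2 (B-Myb) was at 11.2 to 26.3 CPM (median 17.2), at 22.9, 15.5, 17.8, 10.7 and 19.2 CPM and at 8.61 to 40.6 CPM (median 13.8). Neither factor was separated between groups.

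Mcm2, a subunit of the MCM helicase, was at 75.0 to 152 CPM (median 102) in MaP R172H/- tumors, at 86.8, 309, 117, 50.02 and 113 CPM in MaP R245W/- tumors and at 39.2 to 127 CPM (median 70.3) in MaP -/- tumors. JM1564 held the 309 CPM, and without it the estimate between the mutants turned from -0.31 to 0.25. In MaP R245W/- against MaP -/- tumors Mcm2 had the largest estimate of the members, 0.85 (SE 0.421, FDR 0.452). Mcm7, another subunit, was at 74.5 to 252 CPM (median 109) in MaP R172H/- tumors, at 153, 186, 145, 85.3 and 108 CPM in MaP R245W/- tumors and at 64.0 to 128 CPM (median 103) in MaP -/- tumors. YZ7 held the 252 CPM, and the other 6 MaP R172H/- tumors ended at 128 CPM. Mcm3 to Mcm6 had estimates between -0.34 and 0.25 over the 3 comparisons.

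The licensing factors Cdc6 and Cdt1 bring the MCM helicase to origins. Cdt1 was at 8.98 to 36.7 CPM (median 18.3) in MaP R172H/- tumors, at 26.3, 29.6, 27.8, 29.0 and 27.4 CPM in MaP R245W/- tumors and at 9.41 to 34.2 CPM (median 18.6) in MaP -/- tumors. The MaP R245W/- tumors lay within 1.13-fold of each other, against 4.08-fold and 3.64-fold in the other groups, and the estimate against MaP -/- tumors was 0.55 (FDR 0.453). Cdc6 was at 14.1 to 32.3 CPM (median 22.1), at 24.1, 24.5, 29.7, 10.5 and 22.8 CPM and at 9.31 to 46.3 CPM (median 20.7). Rrm2, the regulatory subunit of ribonucleotide reductase, was at 18.9 to 70.7 CPM (median 33.2), at 42.6, 92.6, 62.4, 47.6 and 77.4 CPM and at 24.4 to 125 CPM (median 60.1). Its estimates of -0.74 (FDR 0.249) against MaP -/- and -0.73 (FDR 0.225) against MaP R245W/- tumors came with wide intervals, and it did not pass the test. Tyms, which makes thymidylate, was at 19.9 to 42.3 CPM (median 33.0), at 56.7, 34.8, 45.9, 26.6 and 37 CPM and at 18.6 to 63.5 CPM (median 33.3).

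Which members were called in MaP R172H/- against MaP -/- tumors depended on single libraries of both groups. No member was called without YZ2, YZ3, YZ4, YZ6, YZ7 or YZ10, nor without JM836-T1, JM663-T1, JM663-T2 or JM833-T2, each left out alone. Without JM779-T1, the tumor with the highest scores, Pcna was no longer called, and 2 members were called higher in MaP R172H/- tumors, Mcm2 (0.79, FDR 0.0379) and Ube2c (0.98, FDR 0.0452), where the whole set of 13 tumors gave 0.55 (FDR 0.182) and 0.58 (FDR 0.31). Leaving out YZ7 as well gave the same 2 calls. Without JM833-T1, the lowest tumor, 2 members were called lower, Ccnb1 and Pcna. The median over the 37 members moved from 0.06 to 0.32 in the first case and to -0.10 in the second.

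The rest of the cell cycle was read from lists that do not hold the members. In MaP R172H/- against MaP -/- tumors 0 of 40 other mitotic genes were called, where 8.4% of all genes were. Of 34 other S-phase genes, E2f2 was called higher (0.61, FDR 0.0461) and Rfc4, a subunit of the clamp loader that places Pcna on DNA, was called lower (-0.99, FDR 0.0446). Of 18 brakes on the cycle, Pkmyt1, the kinase that holds Cdk1 inactive, was called higher (0.98, FDR 0.0158), as was Lin37, a DREAM subunit (0.64, FDR 0.0483), and the antiproliferative gene Btg2 was called lower (-1.05, FDR 0.0323). Without YZ11 only Pkmyt1 of these 5 genes was called (0.95, FDR 0.0327), and the FDRs of the others lay between 0.0579 and 0.0839. Cdkn1a itself was at 7.16 to 17.0 CPM in MaP R172H/-, 5.38 to 40.4 CPM in MaP R245W/- and 9.33 to 25.9 CPM in MaP -/- tumors and was not called (-0.23 and 0.01 against MaP -/- tumors, FDR 0.65 and 0.997). Its 40.4 CPM were in JM1126, the MaP R245W/- tumor with the lowest mitotic score. The 25.9 CPM were in JM779-T1, the tumor with the highest mitotic score of the series. JM833-T1, with the lowest mitotic score, was at 12.5 CPM.

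Between the mutants, Cks2, a small subunit that binds Cdk1, was the 1 of 40 other mitotic genes called, lower in MaP R172H/- tumors (-1.12, FDR 0.0089). Rfc4 (-1.19, FDR 0.0238), the licensing inhibitor Gmnn (-0.92, FDR 0.0305) and Orc6 of the origin recognition complex (-0.98, FDR 0.0357) were called lower of 34 other S-phase genes. Pkmyt1 was called higher (0.89, FDR 0.0195) and Btg2 lower (-0.89, FDR 0.0473). The share over all genes was 9.4%. All of these calls between the mutants, and those of the histone genes below, were lost without YZ11, JM1233 and RM0014. No gene of these lists was called in MaP R245W/- against MaP -/- tumors.

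The replication-dependent histone genes, transcribed in S phase to package new DNA, gave more calls than the members. Of 56 such genes tested in MaP R172H/- against MaP -/- tumors, 32 were called higher and 0 lower, where 3.67% of all genes were called higher, with a median log2 fold change of 1.54. H4c8, which encodes histone H4, was at a mean of 159 ± 37.1 CPM in the 7 MaP R172H/- tumors and 14.98 ± 7.84 CPM in the 6 MaP -/- tumors, a log2 fold change of 3.42 (FDR 8.1e-05). Between the mutants 13 histone genes were higher and 1 lower of 57 tested, with a median of 0.66. In MaP R245W/- against MaP -/- tumors the median was 1.01 with 0 of 55 called. There 30 of the 55 had an unadjusted p below 0.05 in edgeR's test, all higher, against 11.8% of all genes in either direction. These RNAs mostly lack a poly(A) tail, for which the total RNA libraries did not select in any group. Genes within a histone family resemble each other, and whether reads were split among them was not examined. The MaP R172H/- libraries came from another instrument, so that genotype and library cannot be told apart in their comparisons here either. The MaP R245W/- and MaP -/- libraries shared 1 instrument.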

How the data were processed

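RNA from 18 mammary tumors was sequenced by the authors after depletion of ribosomal RNA with a stranded total RNA kit. Per the study's methods and the submitters' processing notes, the authors checked reads with FastQC 0.11.9, used STAR 2.7.10b for alignment to GRCm39 and RSEM 1.3.3 with GENCODE M34 for gene counts, and the deposited values are whole-number counts, not normalized. Whether counting used the strand is not given in the sources used here. Of 57126 genes, 506 had no match in GENCODE M39 and held at most 0.0464% of a tumor's counts. Tumors of 1 group had Spearman correlations of 0.863 to 0.97 over 22593 genes, and each tumor came from a mouse of its own other than the pairs of JM663 and JM833.

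Counts were scaled with TMM, filtered with filterByExpr and tested with edgeR 4.0.16 (quasi-likelihood test, R 4.3.3). Each mutant group was fitted with MaP -/- tumors alone, and the mutants were compared in a fit of all 18 tumors. No term for the instrument could be fitted, since it separates the MaP R172H/- tumors from the rest. Scores used log2 CPM with a prior count of 2. Alternatives were DESeq2 1.42.0, its size factors, TMM on protein-coding genes, other filters, tumors of 1 mouse summed, 1 fit of all tumors, a fold change threshold of 1 on the log2 scale and each tumor left out. Added after seeing the data were counts summed with pseudogene copies (at least 95% identity over 300 bases, blastn 2.17.0) and the fits without the tumors named above. The statistics were tested on simulated data. Python 3.11.15, pandas 2.3.3, numpy 2.4.6, scipy 1.17.1 and matplotlib 3.10.9 were used for the rest.

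The members and lists were chosen with earlier results of these data known. By rule, values are given for every called member, 20 members spread over the roles and the 2 largest estimates per direction in each comparison. Promoter windows are RefSeq's, and 7 members had no window.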

Additional observations from a re-analysis of the deposited data

Results flagged for a closer look

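Single tumors stood apart from their group for several members, by a gap to the next tumor that was large against the range of the group. Of 117 groups of values tested this way 14 were far apart. Chance gives about 1 in 20 for a single group of normally distributed values, which untransformed CPM need not be. These groups are not independent, since the members move together and 8 of the 14 are 1 tumor, JM779-T1, so the number was not set against chance. In YZ7, Ccnb2 was at 84.1 CPM (27.5 to 46.5 CPM in the other 6 MaP R172H/- tumors), Cdk1 at 215 CPM (31.1 to 83.5), Cdc20 at 110.0 CPM (31.7 to 46.5) and Mcm7 at 252 CPM (74.5 to 128). In JM779-T1, Ccnb1 was at 136 CPM (26.8 to 67.4 CPM in the other 5 MaP -/- tumors), Aurka at 107 CPM (19.3 to 50.4), Birc5 at 98.8 CPM (24.0 to 44.9) and Foxm1 at 102 CPM (18.3 to 37). In the same tumor Ube2c was at 65.6 CPM (13.3 to 31.3), E2f1 at 33.8 CPM (10.3 to 18.6), Mybl2 at 40.6 CPM (8.61 to 17.1) and Mcm3 at 232 CPM (40.6 to 98.9). JM779-T1 and YZ7 also had the lowest epithelial marker score of their groups. JM1126 had a mitotic score of -0.724, against 0.179 to 0.434 in the other 4 MaP R245W/- tumors. In JM1564, Mcm2 was at 309 CPM, against 50.02 to 117 CPM.

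The log2 fold change against MaP -/- tumors differed between the mutants, by a test of the difference in the fit of all tumors, for Ccnb1 (MaP R172H/- minus MaP R245W/- -1.17, FDR 0.0167), Pcna (-1.09, FDR 0.00816) and Gins2 (-0.75, FDR 0.0382), with edgeR's quasi-likelihood test. The part of sequencing instrument in these differences cannot be told apart from genotype.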

How the results depend on the processing

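In MaP R172H/- against MaP -/- tumors, where 1 member was called, 2 were called (Ccnb1 and Pcna, both lower) with DESeq2, with TMM on protein-coding genes, with a minimum of 10 counts in every tumor and with 1 fit of all 18 tumors. With tumors of 1 mouse summed 1 was called, Ccnb1 in place of Pcna. With no filter on low counts, or with a log2 fold change of at least 1 required, 0 were called. Leaving out single tumors gave 0 to 2, and without YZ7 and JM779-T1 there were 2, Mcm2 and Ube2c, both higher. Without YZ11 there was 1, Pcna, and the other called cell cycle genes were 31 higher and 0 lower instead of 35 and 2. The FDR of Pcna there lay within 0.0149 to 0.0881 over single tumors left out. The log2 fold change of Foxm1 was 0.09 and became -0.09 with tumors of 1 mouse summed (-0.06 to 0.63 with single tumors left out), that of Mki67 ran from -0.03 to 0.30 and that of Kif11 from -0.02 to 0.20.

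In MaP R245W/- against MaP -/- tumors no alternative called a member. DESeq2 called 7 other cell cycle genes, against 0. Foxm1 ran from -0.35 to 0.31 with single tumors left out and was 0.27 without JM1233 and JM779-T1. Mki67 ran from -0.38 to 0.05, and Ccnb1 was -0.03 without JM1233 and RM0014. Between the mutants, leaving out single tumors gave 2 to 4 called members, Mcm2 ran from -0.52 to 0.25, and without YZ11, JM1233 and RM0014 the called members were 1 instead of 3 and the other called cell cycle genes 0 instead of 20. The cause was not tested, although fewer tumors were fitted. The differences in score moved by less than the spread between replicates in every alternative run. No paired analysis was possible because the replicate numbers were given in accession order and do not link tumors across groups. The lowest count of a member in a tumor was 180.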

Other observations

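Neighbors of the members that stood out in single tumors were looked up after those values were seen, among protein-coding genes within 1 Mb. The measure is the CPM of the tumor over the median of the other 17. Mcm2 was at 3.56 in JM1564, and 10 of its 16 neighbors were at 2 or more, against 8.88% of 13309 protein-coding genes in that tumor. They lay between Rpn1 (3.35) and Txnrd3 (6.24) on both sides of Mcm2, among them Ruvbl1 (3.66), Sec61a1 (3.3) and Mgll (4.2). Gata2 (0.235) and Plxna1 (1.37) in the same stretch stayed under 2, and the genes outside it, Copg1 (0.604), Hmces (0.544), Rab7 (0.536) and Vmn1r43 (0.447), lay below 1. Mcm7 was at 2.34 in YZ7, and 26 of its 38 neighbors were at 2 or more, against 15% of 13284 genes in that tumor. Mcm7 overlaps its neighbors Cops6 and Ap4m1. Cdk1 in YZ7 was at 2.71 with 0 of 5 neighbors at 2 or more, and Ccnb2 in YZ7 at 2.3 with 0 of 11. Cdc20 in YZ7 was at 2.42 with 9 of 28, and Foxm1 in JM779-T1 at 2.75 with 3 of 17, against 9.06% of 13314 genes in that tumor. DNA copy number was not analysed here.

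Base composition moved with the fold changes. Across genes, which are not independent replicates, the log2 fold change against MaP -/- tumors had a Pearson correlation with the GC content of the transcript of 0.28 over 20860 genes and 0.19 over the 37 members. In MaP R245W/- against MaP -/- tumors the values were 0.17 and -0.04, and between the mutants 0.1 and 0.20. In MaP R172H/- against MaP -/- tumors the median log2 fold change was -0.18 over the 6955 genes of lowest and 0.25 over the 6953 genes of highest GC content. Pcna had a GC content of 45.3%, Ccnb1 44.4% and Gins2 53.4%. The other cell cycle genes named as lower in MaP R172H/- tumors ran from 44.9% (Cks2) to 49.7% (Btg2), with Gmnn, Orc6 and Rfc4 between, and those named as higher were E2f2 at 56.0%, Lin37 at 56.2% and Pkmyt1 at 62.5%. The part of GC content in the calls was not tested.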
